A study of Mus musculus with 32 samples.

Results

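Hedgehog signaling between the urothelium and the stroma of the mouse bladder was followed through 9 genes of the 32285 in the count table: the ligands Shh and Ihh, the receptor Ptch1, the signal transducer Smo, the ligand-binding inhibitor Hhip, the transcription factors Gli1, Gli2 and Gli3, and the stromal growth factor Bmp4. The genes were chosen by name, through the Ensembl identifier of each symbol, and all 9 had a row in the table. RNA sequencing of whole bladders from 32 female C57BL/6 mice gave 6 groups. Young (2 months, n = 6), middle-aged (10 months, n = 5) and untreated old mice (26 months, n = 6) received no treatment. The other old mice were gavaged on 3 days of each month from 21 to 26 months of age and studied at 26 months. They received water (n = 5), a vehicle of Phosal, polyethylene glycol and ethanol (n = 4), or the senolytic pair dasatinib at 5 mg/kg/day and quercetin at 50 mg/kg/day in that vehicle (D + Q, n = 6). Each library is labelled as a separate bladder. Dasatinib is a tyrosine kinase inhibitor and quercetin a plant flavonol, given together to remove senescent cells.

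Hedgehog ligands are secreted proteins that carry a signal from one tissue layer to the next. In the bladder, Shh is made by basal cells of the urothelium, the epithelial lining, and acts on the fibroblasts beneath it. Without ligand, the receptor Ptch1 holds Smo inactive and Gli3 is processed to a repressor. With ligand, Smo becomes active at the primary cilium and Gli2 turns on target genes, among them Gli1, Ptch1 and Hhip. Ptch1 and Hhip then bind ligand and damp the signal, so that the levels of Gli1 and Ptch1 are commonly read as a record of pathway activity. Stromal cells answer with factors such as Bmp4, Wnt2 and Wnt4 that act back on the urothelium.

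Libraries held 15088372 to 52650259 assigned counts, and no pair of them was identical. Levels are given in CPM, read counts scaled by TMM to a common library size, and levels of different genes are compared only per gene length, in TPM. The labelled tissue had its defining genes. The 10 urothelial markers summed to 4461 to 5749 CPM over all bladders. The 6 smooth muscle markers summed to 23520 to 38210 CPM, and no listed marker was at 0 throughout any group. Fibroblast markers differed by age: the 7 genes summed to 14910 to 27930 CPM in young bladders, to 9810 to 12300 CPM at middle age and to 9315 to 10720 CPM in untreated old bladders. The 6 immune markers summed to 577 to 651 CPM in young and 865 to 1259 CPM in untreated old bladders. In whole bladder RNA, fewer cells of a type and less RNA per cell cannot be told apart.

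Averaged over all bladders, Shh was the most abundant member per gene length and Ihh the least. Mean levels over the 32 bladders were 129.9 TPM for Shh, 109 TPM for Bmp4, 62.5 TPM for Ptch1, 61.7 TPM for Smo, 52.7 TPM for Gli1, 32.8 TPM for Hhip, 22.2 TPM for Gli2, 9.69 TPM for Gli3 and 0.313 TPM for Ihh. The ranges over bladders of neighbours in this order overlapped, except those of Gli3 (6.68 to 13.6 TPM) and Gli2 (14.9 to 40.6 TPM), and those of Gli3 and Ihh (0 to 0.856 TPM). The order differed by age: in young bladders Bmp4 was at 129.8 ± 12.6 TPM and Shh at 121.4 ± 24.0 TPM (SD, n = 6), and Smo was above Ptch1 in young bladders (70.5 ± 2.23 against 64.9 ± 9.27 TPM) and at middle age (65.5 ± 2.62 against 55.0 ± 12.1 TPM, SD, n = 5). Each of these differences was within the larger SD of its pair. Between the lowest and the highest bladder, Smo varied least (87.3 to 116 CPM) and Gli2 most (30.5 to 80.5 CPM) among the members other than Ihh.

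**Figure D1:**
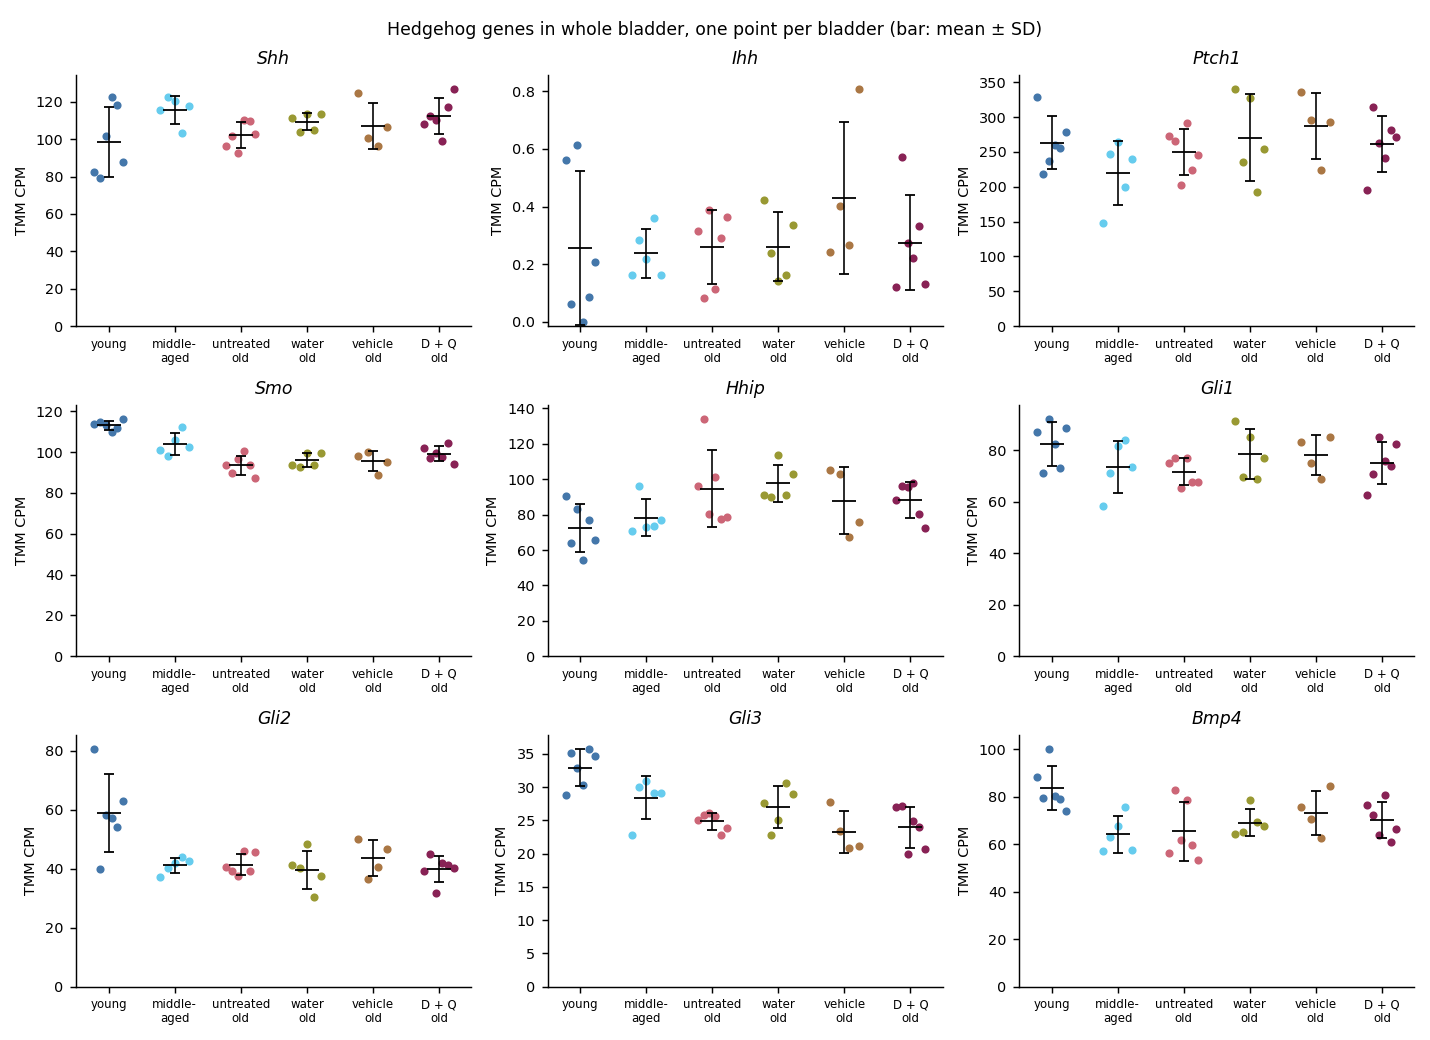
TMM-scaled levels in CPM of the 9 Hedgehog genes (y axes from 0, except for Ihh, where the lower error bar of the young group reaches below 0) in the 6 groups of bladders (x axes), with 1 point per bladder and bars for the mean ± SD. Smo and Gli3 are lower in every untreated old than in every young bladder, Gli2 and Bmp4 are higher in the young group with overlap, and the 4 old groups overlap for each gene.

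Shh, the ligand that basal urothelial cells secrete, gave no difference between untreated old and young bladders that passed the test, and its level at middle age was above that of untreated old bladders. Shh (chr5:28456815-28467256, minus strand, mm10) had a lowest, median and highest level of 79.2, 94.7 and 122.5 CPM in young bladders. The 5 middle-aged bladders had 103.2, 115.8, 117.6, 120.2 and 122.5 CPM, and untreated old bladders had 92.6, 102.4 and 110.1 CPM. The young bladders spread most, with 3 at 79.2 to 87.7 CPM, below every bladder of both later groups, and 3 at 101.7 to 122.5 CPM, within the ranges of those groups, and only the middle-aged bladder at 103.2 CPM lay within the untreated old range. From middle age to old age Shh fell by 0.18 on the log2 scale (SE 0.053, adjusted p = 0.0271, edgeR). The call was lost when middle-aged replicate 2, 3 or 5 or untreated old replicate 1 or 3 was left out (log2 fold changes of -0.15 to -0.18, adjusted p = 0.0561 to 0.0688), and in a fit of all 6 groups (adjusted p = 0.198). A replicate block by title number lost it too (edgeR, adjusted p = 0.0852). Middle-aged against young bladders gave 0.24 (SE 0.11, adjusted p = 0.178), and from young to untreated old 0.06 (SE 0.10, adjusted p = 0.750).

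Ihh, another Hedgehog ligand best known from cartilage and gut, was near the limit of detection. Its 32 libraries held 0 to 19 counts, and 4 of them held no more than 3. The young library with 0 counts allows a level of up to 0.178 CPM over its total counts, taking 3 counts as the limit and counting error alone. Group means ran from 0.238 ± 0.0849 CPM in middle-aged (SD, n = 5) to 0.430 ± 0.262 CPM in vehicle-treated old bladders (SD, n = 4). Ihh was too low to be tested in 3 of the 7 comparisons, and in the other 4 no difference was detectable at this depth.

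Of the receptor-side genes, Smo was lower in old bladders, Ptch1 passed no test, and Hhip passed only under settings other than the 2-group edgeR fit of all bladders. Smo (chr6:29735503-29761365, plus strand) encodes the membrane protein that passes the signal on once Ptch1 lets it go. Its lowest, median and highest levels were 109.8, 113.4 and 116.2 CPM in young and 87.3, 93.7 and 100.3 CPM in untreated old bladders, and the 5 middle-aged bladders had 98.3, 100.9, 102.4, 106.0 and 112.4 CPM. Every untreated old bladder was below every young one, a pattern found in 5.96% of the 16873 genes tested between these groups, and the middle-aged group overlapped both. Smo fell by 0.27 on the log2 scale from young to untreated old (SE 0.037, adjusted p = 0.000153, edgeR) and by 0.15 from middle-aged to untreated old (SE 0.042, adjusted p = 0.0189). Both calls held in all 6 alternative fits and whichever bladder was left out. Middle-aged against young bladders gave a log2 fold change of -0.11 (SE 0.041, adjusted p = 0.0997), which passed the threshold in DESeq2 (adjusted p = 0.0372) and in a fit of all 6 groups (adjusted p = 0.0296).

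Ptch1, the Hedgehog receptor and itself a target gene (chr13:63508328-63573598, minus strand), had lowest, median and highest levels of 218.8, 257.6 and 328.3 CPM in young and 202.2, 255.5 and 291.2 CPM in untreated old bladders. The middle-aged bladders had 148.7, 199.2, 239.5, 246.9 and 264.2 CPM. The 3 ages overlapped, and the log2 fold change from young to untreated old was -0.07 (SE 0.10, adjusted p = 0.675). Hhip, a membrane protein that binds Hedgehog ligands and keeps them from Ptch1 (chr8:79965851-80058006, minus strand), had lowest, median and highest levels of 54.3, 71.1 and 90.7 CPM in young and 77.6, 88.4 and 134.0 CPM in untreated old bladders. The middle-aged bladders had 70.9, 72.8, 73.7, 77.1 and 96.4 CPM. The Hhip groups overlapped too. Its log2 fold change was 0.12 from young to middle age (SE 0.12, adjusted p = 0.559), 0.28 from middle-aged to untreated old (SE 0.14, adjusted p = 0.169) and 0.39 from young to untreated old (SE 0.15, adjusted p = 0.0698, edgeR). The last of these passed the threshold in DESeq2 (adjusted p = 0.0357), in a fit of all 6 groups (adjusted p = 0.0281) and without young replicate 1 (adjusted p = 0.0391). The change from middle-aged to untreated old passed with a replicate block by title number (edgeR, adjusted p = 0.0247) or by library number (adjusted p = 0.0277).

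Gli2 and Gli3, the factors that transmit the signal to the genome, were lower in untreated old than in young bladders, whereas Gli1, the target among the 3, missed the threshold narrowly. Gli2 is the main activator and Gli3 the main repressor. Gli2 (chr1:118834132-119053619, minus strand) had lowest, median and highest levels of 39.8, 57.6 and 80.5 CPM in young and 37.4, 39.9 and 46.1 CPM in untreated old bladders, and the middle-aged bladders had 37.1, 40.4, 41.8, 42.4 and 44.0 CPM. The young group spread most, and its lowest bladder lay within the ranges of both later ages. Gli2 fell by 0.50 on the log2 scale from young to middle age (SE 0.13, adjusted p = 0.0269) and by 0.50 from young to untreated old (SE 0.13, adjusted p = 0.0102, edgeR), and differed by 0.01 between middle-aged and untreated old (SE 0.063, adjusted p = 0.934). The call between young and middle age was lost without young replicate 6 or middle-aged replicate 1, 2, 3 or 5 (adjusted p = 0.0595 to 0.0732). A replicate block by title number lost it as well (edgeR, adjusted p = 0.0869).

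Gli3 (chr13:15463235-15730026, plus strand) had lowest, median and highest levels of 28.9, 33.8 and 35.7 CPM in young and 22.8, 25.3 and 26.1 CPM in untreated old bladders. The middle-aged bladders had 22.7, 29.1, 29.1, 30.1 and 30.9 CPM. Every untreated old bladder was below every young one, as in 5.96% of the 16873 genes tested. Gli3 fell by 0.41 on the log2 scale between these ages (SE 0.060, adjusted p = 0.000310). From middle-aged to untreated old its log2 fold change was -0.19 (SE 0.072, adjusted p = 0.0724), and it passed the threshold in DESeq2 (adjusted p = 0.0447) and, at -0.27 (adjusted p = 0.00195), without middle-aged replicate 1, the bladder at 22.7 CPM. The Gli2 and Gli3 calls between young and untreated old held in all 6 alternative fits and whichever bladder was left out. Exons of the predicted gene Gm6556 overlap Gli3 on the opposite strand, and whether strand was used in counting is not given in the sources used here, so reads of the pair cannot be told apart.

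Gli1, whose transcription depends on Hedgehog input (chr10:127329882-127341974, minus strand), had lowest, median and highest levels of 71.0, 84.7 and 92.1 CPM in young and 65.4, 71.4 and 77.0 CPM in untreated old bladders. The middle-aged bladders had 58.2, 71.2, 73.3, 81.5 and 83.8 CPM. The ages overlapped. The log2 fold change from young to untreated old was -0.20 (SE 0.069, adjusted p = 0.0505, edgeR). It passed the threshold in DESeq2 (adjusted p = 0.0310), in limma on the deposited log2 values (adjusted p = 0.0384) and without young replicate 2, young replicate 5 or untreated old replicate 4 (adjusted p = 0.0181 to 0.0476). Exons of Gli1 overlap Arhgap9 and Gm47200 on the opposite strand, those of Shh overlap 9530036O11Rik and those of Bmp4 overlap Gm15217, with the same limit as for Gli3.

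Bmp4, a growth factor that stromal cells make in answer to Hedgehog ligand (chr14:46383520-46390669, minus strand), was lower at both later ages than in young bladders. Its lowest, median and highest levels were 74.0, 79.8 and 100.0 CPM in young and 53.2, 60.6 and 82.7 CPM in untreated old bladders, and the middle-aged bladders had 57.0, 57.6, 63.0, 67.7 and 75.7 CPM. In each later group the bladders at 75.7 CPM or above reached into the young range. Bmp4 fell by 0.37 on the log2 scale from young to middle age (SE 0.088, adjusted p = 0.0208, edgeR) and by 0.35 from young to untreated old (SE 0.11, adjusted p = 0.0330). The first call was lost without middle-aged replicate 1, 2 or 5 (adjusted p = 0.0527 to 0.0656). The second was lost without young replicate 1 or 3 or untreated old replicate 1, 3, 5 or 6 (adjusted p = 0.0612 to 0.0734).

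Counted over the list, 2 of the 8 members tested were lower in middle-aged than in young bladders (Gli2 and Bmp4) and none was higher, where 10.8% of the 16754 genes tested were called. Between middle-aged and untreated old bladders 2 of 9 were lower (Shh and Smo) and none was higher, where 24.0% of 17156 genes were called. Between young and untreated old bladders 4 of 8 were lower (Smo, Gli3, Gli2 and Bmp4) and none was higher, where 25.1% of 16873 genes were called. Smo and Gli3 were the members whose untreated old bladders were all below all young ones, a pattern of 5.96% of these genes. The median log2 fold change of the members was -0.18, 0.01 and -0.24 in the 3 comparisons in this order, and over all genes tested it was 0.003, -0.005 and -0.002. The comparisons share groups and are not independent of each other. Between young and untreated old, 6 of 7 fibroblast, 2 of 6 smooth muscle and 3 of 5 skeletal muscle markers were also lower, 5 of 6 immune markers were higher and 0 of 10 urothelial markers were called. Between young and middle age, where Gli2 and Bmp4 were called, 5 of 7 fibroblast, 2 of 5 skeletal muscle and 1 of 10 urothelial markers were lower and 1 of 6 immune markers was higher. Between middle-aged and untreated old, where Shh and Smo were called, 4 of 10 urothelial, 1 of 7 fibroblast and 1 of 6 smooth muscle markers were lower, 1 urothelial marker and 5 of 6 immune markers were higher, and of the 5 skeletal muscle markers 1 was higher and 1 lower. The part of these shifts in the changes of the members was not tested. The calls of Gli2 and Bmp4 between young and middle age did not hold in every fit with 1 bladder left out. Without middle-aged replicate 1, the lowest of its group for 6 members, 0 members were called between these ages. The same held without middle-aged replicate 2 or 5. Over all genes 888 of 16872 were called without replicate 1, against 1811 of 16754. The counts were 882 of 16875 without replicate 2 and 728 of 16846 without replicate 5. Without replicate 1 the log2 fold changes were -0.47 for Gli2 and -0.33 for Bmp4. Between middle age and old age 3 members (Shh, Gli3 and Smo) and 3709 of 17330 genes were called without that bladder, against 4110 of 17156 genes.

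**Figure D2:**
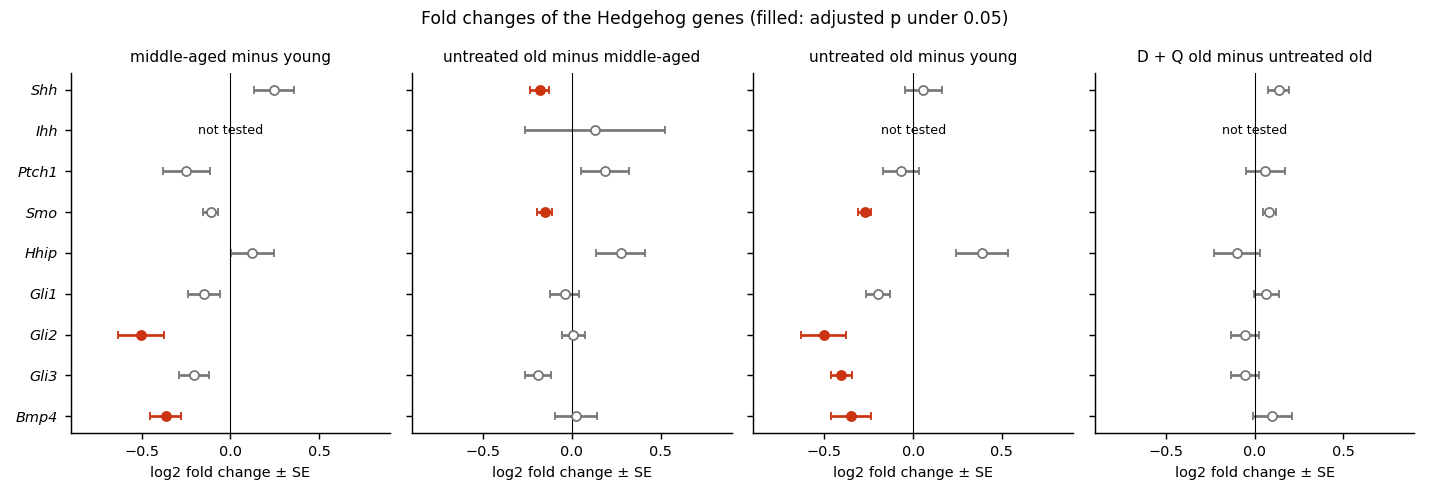
Log2 fold changes ± SE (x axis) of the 9 Hedgehog genes (y axis) in 3 age comparisons and for D + Q against no treatment at old age, from edgeR fits of 2 groups each. Filled points have an adjusted p under 0.05: Gli2 and Bmp4 in the first panel, Shh and Smo in the second, Smo, Gli2, Gli3 and Bmp4 in the third and none in the fourth.

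Because Smo, Gli2, Gli3 and Bmp4 were lower together in untreated old bladders, their promoters were read from RefSeq (GRCm38.p6), in which 7 of the 9 members had an entry, all but Shh and Gli1. The 250 bases before the transcription start are shown 5′ to 3′ for the 3 of these 4 genes whose stretch meets no exon of the count table. The capitals mark GGGCGG, the GC box bound by Sp-family factors, on either strand.
Smo (chr6:29735247-29735496, plus strand): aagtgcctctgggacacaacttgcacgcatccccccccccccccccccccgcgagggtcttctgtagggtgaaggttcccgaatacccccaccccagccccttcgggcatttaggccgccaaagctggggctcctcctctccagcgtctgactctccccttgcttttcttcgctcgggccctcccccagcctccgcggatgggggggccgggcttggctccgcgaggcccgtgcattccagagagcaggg
Gli2 (chr1:119053620-119053869, minus strand): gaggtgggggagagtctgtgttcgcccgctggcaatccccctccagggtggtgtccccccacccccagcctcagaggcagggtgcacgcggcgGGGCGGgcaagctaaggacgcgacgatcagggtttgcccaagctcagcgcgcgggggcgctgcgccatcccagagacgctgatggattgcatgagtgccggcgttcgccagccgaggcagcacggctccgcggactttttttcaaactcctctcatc
Bmp4 (chr14:46390670-46390919, minus strand): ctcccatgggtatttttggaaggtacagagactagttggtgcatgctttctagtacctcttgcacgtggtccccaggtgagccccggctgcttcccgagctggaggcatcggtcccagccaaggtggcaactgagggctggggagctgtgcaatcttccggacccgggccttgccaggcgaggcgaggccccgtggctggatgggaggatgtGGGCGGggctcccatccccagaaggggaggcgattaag
The Gli2 stretch held 1 GC box, which starts 157 bases before the transcription start, and the Bmp4 stretch 1, which starts 38 bases before it. The Smo stretch held none. Of the 7 member promoters 6 held a GC box on either strand, as did 32.7% of the 32851 RefSeq promoters read over the same length. GC content was 68.4% for Smo, 67.2% for Gli2 and 63.2% for Bmp4, and the median over all promoters was 52.4%. The consensus to which Gli factors bind, GACCACCCA on either strand, was in 0 of the 7 member promoters and in 0.225% of all. A match or its absence in these windows describes the letters only.

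The rest of the pathway was read through 42 further genes in 5 lists, all of which were tested. In middle-aged against young bladders 1 of the 42 was higher and 4 were lower, where 10.8% of all genes were called. In untreated old against middle-aged bladders 4 were higher and 10 lower, against 24.0% of all genes, and in untreated old against young bladders 5 were higher and 15 lower, against 25.1%. As each bladder was left out, 1 to 6, 10 to 13 and 12 to 19 of the 42 were called in these comparisons, and the count of 20 fell to 12 without young replicate 6 or untreated old replicate 6 and to 13 without untreated old replicate 1 or 3. Between young and untreated old the count by list was 1 higher and 2 lower of 7 genes for making and releasing ligand. It was 0 and 2 of 5 for receptors and co-receptors, 1 and 5 of 12 for intracellular transduction, 0 and 2 of 8 for the primary cilium and 3 and 4 of 10 for stromal targets. The list medians, in the same order, were -0.11, -0.16, -0.07, -0.01 and -0.20 on the log2 scale.

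The called falls of the largest size between young and untreated old bladders were in Dhh, Gpr161 and Cdon. Dhh, the remaining mammalian Hedgehog ligand, fell by 0.80 on the log2 scale (SE 0.23, adjusted p = 0.0204) from a low level, 1.68 ± 0.583 CPM in young (SD, n = 6) and 0.948 ± 0.162 CPM in untreated old bladders (SD, n = 6). Gpr161, a ciliary receptor that restrains the pathway, had lowest, median and highest levels of 35.1, 43.1 and 46.6 CPM in young and 26.5, 27.6 and 32.1 CPM in untreated old bladders, and fell by 0.57 (SE 0.069, adjusted p = 6.3e-05, edgeR). Cdon, a co-receptor that helps ligand reach Ptch1, had 93.0, 99.4 and 132.5 CPM in young and 58.7, 74.9 and 79.3 CPM in untreated old bladders, and fell by 0.57 (SE 0.092, adjusted p = 0.000582). For Gpr161 and Cdon every untreated old bladder was below every young one, as in 5.96% of the 16873 genes tested. The same held for Hhat, Kif7, Prkaca, Tulp3 and Bbs1 among the 42 genes. Both were also the largest called falls after Dhh between middle-aged and untreated old bladders, at -0.36 (SE 0.064, adjusted p = 0.00158) for Gpr161 and -0.35 (SE 0.081, adjusted p = 0.00715) for Cdon, where Dhh was at -0.55 (SE 0.16, adjusted p = 0.0271). In that comparison the largest called rises were in Lrp2, an endocytic receptor that takes up Shh (0.45, SE 0.14, adjusted p = 0.0298), Bcl2 (0.43, SE 0.044, adjusted p = 2.6e-05) and Grk2, a kinase needed for Smo signaling (0.25, SE 0.036, adjusted p = 0.000336). The call of Dhh in that comparison held in 4 of 6 alternative fits and 5 of 11 fits with 1 bladder left out, and that of Lrp2 in 4 and 6, whereas those of Gpr161, Cdon, Bcl2 and Grk2 held in all of them.

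Genes listed as stromal targets moved in both directions in whole bladder RNA. The cells that carried each change were not tested. Foxf2, a forkhead factor of the mesenchyme, had lowest, median and highest levels of 20.5, 21.8 and 26.3 CPM in young bladders, of 25.8, 26.7 and 34.1 CPM at middle age and of 31.5, 32.5 and 34.5 CPM in untreated old bladders. It rose by 0.35 on the log2 scale from young to middle age (SE 0.085, adjusted p = 0.0229), by 0.22 from middle-aged to untreated old (SE 0.068, adjusted p = 0.0347) and by 0.55 from young to untreated old (SE 0.060, adjusted p = 3.3e-05, edgeR). Its relative Foxf1 fell by 0.20 from young to untreated old (SE 0.065, adjusted p = 0.0400), and Foxl1, another forkhead factor, rose by 0.23 (SE 0.072, adjusted p = 0.0313). Some of these calls were lost in other fits: between young and untreated old, that of Foxl1 held in 2 of 6 alternative fits and 6 of 12 fits with 1 bladder left out and that of Foxf1 in 5 and 5, and between middle-aged and untreated old that of Foxf2 held in 4 of 6 and 4 of 11. The Foxf2 call from young to middle age held in 5 of 6 and 9 of 11. Bcl2, an inhibitor of apoptosis, rose by 0.44 (SE 0.097, adjusted p = 0.00442), from 20.5 to 34.2 CPM over young to 35.5 to 41.1 CPM over untreated old bladders. The share of all genes with every untreated old bladder above every young one was not counted. In the same comparison 5 of 6 immune markers were higher, and their part in the rise of Bcl2 was not tested.

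Among the secreted factors, Wnt4 fell by 0.30 from young to middle age (SE 0.057, adjusted p = 0.00772) and by 0.26 from young to untreated old (SE 0.071, adjusted p = 0.0169). Wnt2 fell by 0.20 in the first of these (SE 0.061, adjusted p = 0.0479) and was at -0.10 in the second (SE 0.072, adjusted p = 0.339). Bmp5 fell by 0.21 from young to untreated old (SE 0.062, adjusted p = 0.0267). Ccnd1, the cell cycle gene of cyclin D1, fell by 0.58 from young to middle age (SE 0.16, adjusted p = 0.0388) and by 0.40 from young to untreated old (SE 0.13, adjusted p = 0.0426). The authors of the data report high Cyclin D1 protein strictly in umbrella cells, the surface layer of the urothelium, throughout the lifespan. The falls given here are of RNA in whole bladder. Ccnd1 was listed as a stromal target, and the cells that carried its falls were not tested. With 1 bladder left out, the Ccnd1 calls held in 3 of 11 and 3 of 12 fits, the Wnt2 call in 2 of 11 and the Bmp5 call in 8 of 12, and the Wnt2 call held in 3 of the 6 alternative fits. Boc, a co-receptor related to Cdon, fell by 0.33 from young to middle age (SE 0.078, adjusted p = 0.0201), a call that held in 7 of 11 fits with 1 bladder left out. Fgf16 and Mycn passed no test in any age comparison, with levels of no more than 1.16 CPM. Of the calls between young and untreated old, those of Cdon, Boc, Kif7, Gpr161, Prkaca, Tulp3, Bbs1, Wnt4, Foxf2 and Bcl2 held in all 6 alternative fits and whichever bladder was left out. Between young and middle age, that of Wnt4 did so.

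**Figure D3:**
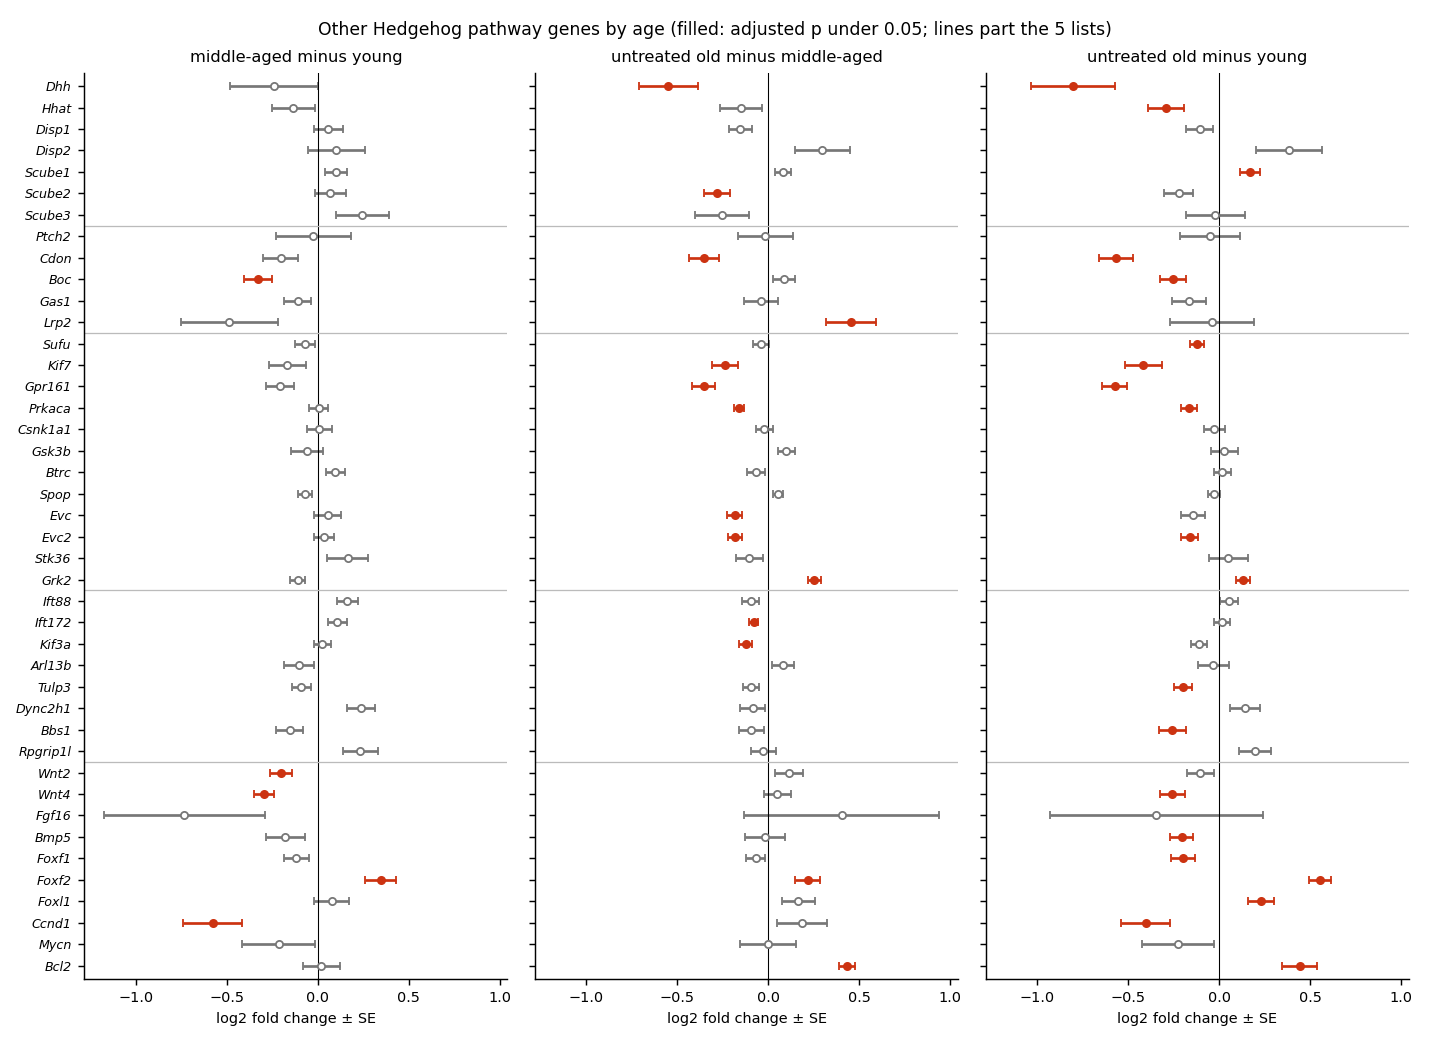
Log2 fold changes ± SE (x axis) of 42 other Hedgehog pathway genes (y axis) in the 3 age comparisons, grouped by horizontal lines into ligand production, receptors and co-receptors, intracellular transduction, primary cilium and bladder stromal targets. Filled points have an adjusted p under 0.05 (5, 14 and 20 genes from left to right), most of them below 0, with Foxf2 and Bcl2 above 0 in the third panel.

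Gavage of old mice was followed by no change in a member that passed the test. With D + Q, Shh had lowest, median and highest levels of 99.0, 111.5 and 127.0 CPM, against 92.6, 102.4 and 110.1 CPM in untreated old bladders. Smo had 94.1, 98.7 and 104.5 CPM, against 87.3, 93.7 and 100.3 CPM. Gli1 had 62.6, 74.7 and 85.0 CPM, against 65.4, 71.4 and 77.0 CPM. The groups overlapped for every member. For D + Q against untreated old, 0 of the 8 members tested and 0 of 17037 genes (0%) were called by edgeR, with 2200 genes at an unadjusted p under 0.05. DESeq2 called 185 genes and no member. The unadjusted p of Shh was 0.0398 (log2 fold change 0.14, SE 0.059, adjusted p = 0.368) and that of Smo 0.0491 (0.08, SE 0.038, adjusted p = 0.386), and each of the other members was above that threshold.

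Against the vehicle, which is the matched control for the drugs, 0 of 9 members and 0 of 17267 genes (0%) were called for D + Q by edgeR, with 722 genes but no member at an unadjusted p under 0.05, and DESeq2 called 11 genes and no member. The vehicle-treated bladders had 96.4, 100.9, 106.7 and 124.7 CPM of Shh, 68.6, 75.0, 83.3 and 85.3 CPM of Gli1, and 88.7, 95.2, 98.3 and 99.8 CPM of Smo. The log2 fold changes of D + Q over vehicle were 0.07 for Shh (SE 0.080), -0.06 for Gli1 (SE 0.085) and 0.05 for Smo (SE 0.048), with adjusted p of 0.994 for each. Vehicle-treated against untreated old bladders gave 0 of 9 members and 0 of 17440 genes (0%) in edgeR, with 1464 genes but no member at an unadjusted p under 0.05, and 132 genes but no member in DESeq2.

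Water-treated bladders had 103.7, 105.2, 111.5, 113.3 and 113.4 CPM of Shh and 69.0, 69.6, 76.8, 85.0 and 91.2 CPM of Gli1. Against untreated old bladders 0 of 9 members were called by edgeR, where 1.0% of 17250 genes were, no member had an unadjusted p under 0.05, and DESeq2 called no member. None of the 42 other pathway genes was called in any of these 4 comparisons, and the smallest adjusted p over all genes was 0.135 for vehicle, 0.233 for D + Q against untreated old and 0.994 for D + Q against vehicle. The untreated old group serves as the control in 3 of the 4, so these are not independent.

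To set ligand and response against the amount of a tissue layer, Shh was compared with the mean of the 10 urothelial markers. Shh followed these unevenly over the bladders, from r = -0.43 for Krt14 to 0.81 for Cldn4. Gli1 was compared with the mean of the 7 fibroblast markers, which it followed only weakly over the bladders (values below). Both are differences on the log2(CPM + 0.5) scale. Relative to urothelial markers, Shh was -1.28 ± 0.333 in young, -0.96 ± 0.169 in middle-aged, -1.17 ± 0.0965 in untreated old and -1.04 ± 0.0630 in D + Q-treated old bladders (SD, n = 6, 5, 6 and 6). No difference passed after adjustment over the 8 tests. Untreated old minus middle-aged was -0.21 (exact permutation test, two-sided, p = 0.0368, adjusted p = 0.0736) and D + Q minus untreated old was 0.13 (exact p = 0.0281, adjusted p = 0.0736). The vehicle-treated bladders, the matched control for the drugs, were at -1.147, -1.136, -1.133 and -0.886. Those with D + Q ran from -1.135 to -0.964, and D + Q against vehicle was not tested on this scale.

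Relative to fibroblast markers, Gli1 was -3.99 ± 0.350 in young, -3.53 ± 0.234 in middle-aged and -3.40 ± 0.104 in untreated old bladders (SD, n = 6, 5 and 6). Untreated old minus young was 0.59, with all 6 untreated old bladders above all 6 young ones (exact permutation test, two-sided, p = 0.00216, the smallest this design allows, adjusted p = 0.0173). The reference moved in this contrast. The collagen genes Col1a1, Col1a2 and Col3a1, which make up 3 of the 7 markers, fell by 1.27 (SE 0.17), 1.17 (SE 0.16) and 1.51 (SE 0.20) on the log2 scale, and 6 of the 7 fibroblast markers were lower in untreated old bladders. Pdgfra, a receptor by which fibroblasts are recognised, was at -0.13 (SE 0.099, adjusted p = 0.378). Set against the 6 smooth muscle markers instead, Gli1 differed by -0.01 between untreated old and young (exact permutation test, adjusted p = 0.985). This reference moved too, with 2 of the 6 smooth muscle markers lower. The median log2 fold change was -0.27 for the smooth muscle and -0.89 for the fibroblast markers, and Gli1 itself was at -0.20. Whether a difference was detected thus depended on the reference. With any 1 untreated old bladder left out, the adjusted p of the exact permutation test against fibroblast markers was 0.0519 to 0.0693.

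**Figure D4:**
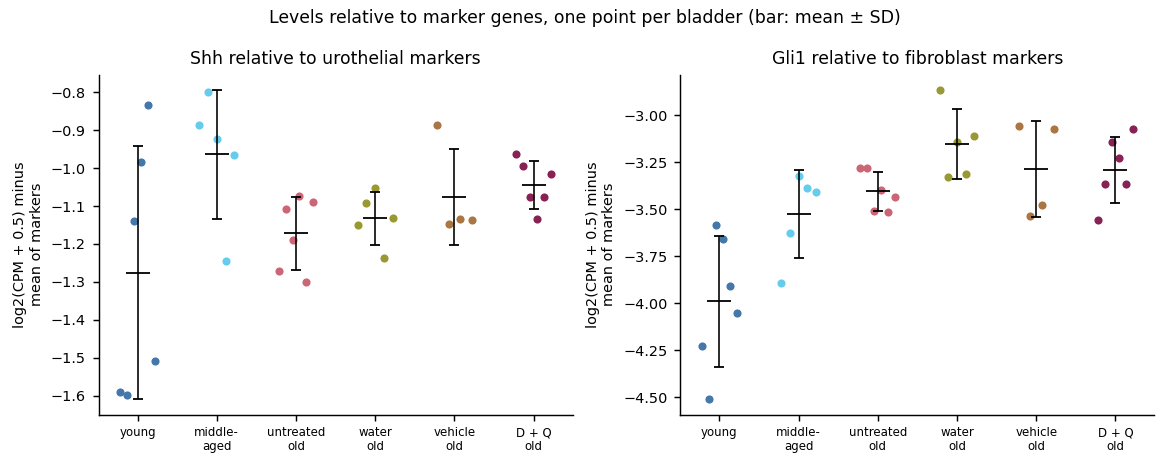
Shh minus the mean of 10 urothelial markers and Gli1 minus the mean of 7 fibroblast markers (y axes, log2(CPM + 0.5) units) in the 6 groups (x axes), with 1 point per bladder and bars for the mean ± SD. Gli1 relative to fibroblast markers is higher in all 6 untreated old than in all 6 young bladders. With smooth muscle markers as the reference this difference was -0.01. Both references moved, with 6 of 7 fibroblast and 2 of 6 smooth muscle markers lower in untreated old bladders.

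Whether ligand and targets moved together from bladder to bladder was examined after each gene was centred on its group mean, over the 32 bladders and 6 pairs of genes. Gli1 and Ptch1, both targets, rose and fell together (Pearson r = 0.71, adjusted p = 0.00078; Spearman rho = 0.60, adjusted p = 0.0113; permutation tests within groups). Without the 2 bladders farthest from the median in Gli1, r was 0.61 (adjusted p = 0.0181) and rho 0.51 (adjusted p = 0.0833). Shh passed no test of a relation to its targets. It had r = 0.15 with Gli1 (adjusted p = 0.677; rho = 0.17, adjusted p = 0.589), r = 0.26 with Ptch1 (adjusted p = 0.243; rho = 0.30, adjusted p = 0.303), r = -0.04 with Hhip and r = -0.01 with Bmp4 (adjusted p = 0.953 for each by permutation; rho = -0.01 and 0.03, adjusted p = 0.957 for each). Gli1 and Hhip had r = 0.28 (permutation, adjusted p = 0.243; rho = 0.27, adjusted p = 0.304). Genes of 1 library share its RNA and its scaling, and their part in the relation of Gli1 and Ptch1 was not tested.

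**Figure D5:**
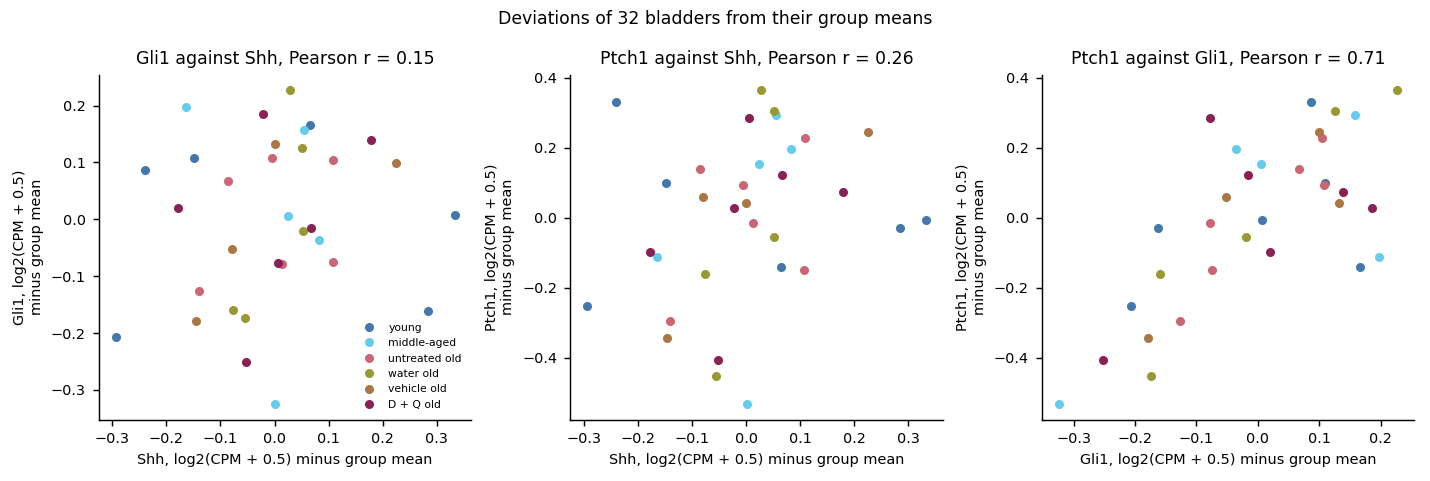
Deviations of Gli1 and Ptch1 from their group means against those of Shh, and of Ptch1 against Gli1 (log2(CPM + 0.5) units on both axes), with 1 point for each of 32 bladders, coloured by group. Points follow a rising band only for Ptch1 against Gli1 (r = 0.71), against r = 0.15 and 0.26 in the other panels.

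Over the uncentred levels of all 32 bladders, among 18093 genes, Shh was most like Gata3 (r = 0.90), a transcription factor of the urothelium, followed by Paqr7 (r = 0.87), Sord (r = 0.87), Hdac11 (r = 0.85) and the tight junction gene Cldn7 (r = 0.85). Gli1 itself ranked 8642 for Shh, at r = 0.0008. The genes most like Gli1 were Pdzd4 (r = 0.75), Pde6d (r = 0.75), Pkdcc (r = 0.70), Adap1 (r = 0.69) and Cd9 (r = 0.69), and Ptch1 ranked 8 at r = 0.68. The leading genes for Shh thus held urothelial genes, and Cldn4, the highest of the 10 urothelial markers, was at rank 21 (r = 0.81). The other markers were lower and some were negative. The 4 basal markers ran from r = -0.43 for Krt14, over 0.01 for Krt5 and 0.08 for Krt15, to 0.67 for Trp63 (rank 352). The 5 superficial markers ran from r = -0.18 for Upk1b, over -0.06 for Krt20, 0.19 for Upk2 and 0.45 for Upk3a, to 0.48 for Upk1a. For Gli1 the 7 fibroblast markers ran from r = 0.04 for Dpt to 0.33 for Col1a1. The 6 smooth muscle markers ran from r = 0.27 for Des to 0.55 for Acta2, and the 10 urothelial markers from -0.02 for Krt14 to 0.49 for Upk2. All these values describe likeness over the 6 groups together and carry no test.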

How the data were processed

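Total RNA of 32 whole bladders was sequenced from stranded libraries. Per the submitters' processing notes, reads were aligned with STAR 2.7.3 to mm10 and counted with Subread. The authors deposited raw counts per gene, with gene lengths, and a second table labelled TPM that holds log2 values: the deposited log2 values equal log2 of (count + 1) per length, scaled to a sum of 100000. The counts were tested in edgeR 4.0.16 (R 4.3.3), with filterByExpr, TMM scaling and quasi-likelihood fits of the 2 groups compared, and Benjamini-Hochberg adjustment over all genes tested at 0.05. Standard errors are the log2 fold change over the square root of its F value. Relative levels were compared by exact permutation over samples and correlations by 100000 permutations within groups, both with a pseudocount of 0.5 CPM and in scipy 1.17.1. Depth was 15088372 to 52650259 counts. DESeq2 1.42.0, limma 3.58.1 on the deposited log2 values, other filters, a fit of all 6 groups, a replicate block and leaving out each bladder were tried, and a block by library number was added after seeing the data. The scripts were tested on simulated data. Members and gene lists were chosen with earlier results of these data known. Named genes are all members, the 3 largest called rises and falls among the pathway lists in each comparison, the stromal targets, and the 5 genes most like Shh and Gli1. Pathway genes named for holding in every fit were chosen after their values were seen.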

Additional observations from a re-analysis of the deposited data

Results flagged for a closer look

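Of 54 groups of bladders tested with Dixon's rule, 2 held a bladder that stood apart from the rest of its group, where chance flags about 1 in 20. Gli3 was lowest in middle-aged replicate 1, at 22.7 CPM against 29.1 to 30.9 CPM in the other 4. This bladder was also the lowest of its group for Gli1, Gli2, Ptch1, Hhip and Bmp4. Hhip was highest in middle-aged replicate 2, at 96.4 CPM against 70.9 to 77.1 CPM in the others.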

How the results depend on the processing

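The titles give groups the same replicate numbers, and in the middle-aged, water and vehicle groups these differ from the numbers in the library names. By neither numbering did every pair of same-numbered bladders deviate together by a correlation above 0.1 in any comparison. The correlations ran from -0.295 (D + Q against untreated old) to 0.205 (vehicle against untreated old, library numbers). For middle-aged and untreated old bladders they were 0.0257 to 0.149 by library number and -0.0945 to 0.136 by title. The labels do not say whether the numbers pair the mice, and a cut-off of this kind cannot exclude it. With the title numbers as a replicate block, 1 member was called between young and middle age (Bmp4, with Gli2 at an adjusted p of 0.0869 in edgeR), and Hhip (adjusted p = 0.0247) took the place of Shh between middle-aged and untreated old; the block changed no other member's call. With the library numbers as a replicate block, an alternative chosen after seeing the data, 1 member (Bmp4) was again called between young and middle age, and Hhip (adjusted p = 0.0277) and Smo between middle-aged and untreated old. With all 6 groups in 1 fit, 1 member was called there (Smo). Leaving out each bladder gave 0 to 2 members between young and middle age and 1 to 3 between middle-aged and untreated old. Of all genes, 716 were called between young and middle age with the block and 2858 with all 6 groups in 1 fit, against 1811, and between middle-aged and untreated old 2519 in that fit, against 4110, of which 54.3% were higher, against 41.0% in limma. For water against untreated old, 173 became 0 with the block, with all 6 groups or in limma, 99 without a filter and 703 in DESeq2. As each bladder was left out, the genes called between young and middle age were 728 (4.32%, without middle-aged replicate 5) to 2794 (16.7%, without young replicate 4) and moved by over 1.5 times also without young replicate 1, 2 or 6 or middle-aged replicate 1, 2 or 3, and those for water were 37 (without water replicate 1) to 199. Of the 42 other pathway genes, 2 were called between young and middle age with the block and 8 in DESeq2, against 5, 9 between middle-aged and untreated old with all 6 groups, against 14, and 13 between young and untreated old with the block, against 20.

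Gli1 relative to fibroblast markers ranged from 0.48 to 0.67 between young and untreated old as each bladder was left out, and Shh relative to urothelial markers from -0.28 to -0.17 between middle-aged and untreated old. With smooth muscle markers the difference in Gli1 was -0.016 between young and middle age and -0.013 between young and untreated old. The correlation of Shh with Hhip was 0.069 without the 2 farthest bladders and 0.14 on the deposited values, where that of Shh with Bmp4 was 0.13. On the deposited values Shh with Ptch1 had r = 0.32 and rho = 0.40 (permutation tests, adjusted p = 0.136 and 0.0732). Gli1 with Hhip had r = 0.39 and rho = 0.40 there (permutation tests, adjusted p = 0.114 and 0.0732).

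Members with changes near 0 turned sign, and the cause was not tested. Between middle-aged and untreated old, Ihh was -0.031 with the block, -0.033 with that by library number and -0.057 in limma, Gli2 -0.025 and -0.040, and Bmp4 -0.034 in limma. Ihh for water was 0.16 with the block, 0.078 with that by library number and 0.084 in limma, and Bmp4 for D + Q over vehicle was 0.0017 and 0.017 with these blocks. As each bladder was left out, the log2 fold changes that crossed 0 were, between middle-aged and untreated old, Ihh (-0.024 to 0.33), Gli1 (-0.12 to 0.0055), Gli2 (-0.030 to 0.039) and Bmp4 (-0.057 to 0.086), and between young and untreated old, Ptch1 (-0.12 to 0.0030). Against untreated old they were, for water, Ihh (-0.26 to 0.070), Gli2 (-0.14 to 0.024) and Hhip (-0.0069 to 0.18), for vehicle, Shh (-0.013 to 0.12), Gli2 (-0.0029 to 0.15) and Hhip (-0.20 to 0.017), and for D + Q, Gli2 (-0.091 to 0.0034), Ptch1 (-0.00021 to 0.13) and Hhip (-0.15 to 0.025). For D + Q over vehicle they were Gli3 (-0.015 to 0.13) and Hhip (-0.10 to 0.10). The Smo and Gli3 calls between young and untreated old held under each alternative named here. Depth limits Ihh, at 0 to 19 counts a library.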
